A study of Arabis alpina with 9 samples.

Results

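The 5 genes described here are WRKY25, WRKY40, WRKY46, WRKY53 and WRKY54 of Arabis alpina, a perennial relative of Arabidopsis thaliana. They were taken from 6 tables in which the authors list genes that differ between the mutant and its control, by the Arabidopsis gene code written beside each Arabis gene. Each code met exactly 1 Arabis gene with 1 entry in the count table, so that the genes make up 5 of the 34220 counted entries and 5 of the 1487 gene IDs that the tables hold. WRKY25 (AT2G30250) is Aa_G35400, WRKY40 (AT1G80840) is Aa_G462530, and WRKY46 (AT2G46400) is Aa_G196840. WRKY53 (AT4G23810) is Aa_G692610 and WRKY54 (AT2G40750) is Aa_G281250. Since only listed genes carry a name, these genes had already differed between mutant and control in at least 1 setting. The series concerns the control of flowering by AaTFL1. All 9 libraries come from the eop089 mutant in the accession Pajares under long days. There were 3 libraries each of dissected shoot apices at 3 weeks, of such apices at 5 weeks, and of the fifth and the sixth leaf at 5 weeks. Control plants enter only through the folds in the authors' tables, and the labels give the mutant by its line name alone.

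WRKY proteins are plant transcription factors with a zinc finger that bind the W-box, a short promoter element found before many defence genes. In Arabidopsis they act in networks that respond to pathogens, salicylic acid, jasmonate, heat, salt and leaf age, and many of them regulate other WRKY genes. WRKY25 belongs to group I of the family and is known for salt and heat responses. WRKY40, of group IIa, is rapidly induced by pathogens and works together with the related WRKY18 and WRKY60. WRKY46, WRKY53 and WRKY54 belong to group III. WRKY53 promotes leaf senescence in Arabidopsis, WRKY54 restrains it together with WRKY70, and WRKY46 takes part in basal defence and in osmotic stress.

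Counts in genes ran from 11859813 to 13382460 per library. The photosynthesis gene CA1 stood at 8470 to 8950 CPM (counts scaled to a library of 1000000) in the leaf. Its apex levels were 4.90 to 32.4 CPM at 3 weeks and 0.322 to 0.991 CPM at 5 weeks. LHCB2.1, the other of the 2 named among 8 leaf mesophyll markers, stood at 7470 to 7860 CPM in the leaf. It held 189 to 268 CPM at the 3-week apex and 136 to 423 CPM at the 5-week apex. For both genes the leaf stood far above the apices, while CA1 varied widely at the young apex and LHCB2.1 at the older. Of further cell type markers, 1 of 3 for epidermis (PDF1), 2 of 3 for guard cells and their lineage (KAT1, TMM) and 3 of 4 for vasculature (SUC2, LAC4, LAC17) had names, and 0 of 2 for trichomes. None of the 8 shoot meristem markers looked for had a name in the tables, so the apex label was not checked against them. Replicates correlated across genes between 0.986 and 0.992 in log2 CPM (genes are not independent replicates), and no pair agreed within counting noise, with chi-square values per degree of freedom from 1.66 to 10.7. The labels do not say that replicates are separate plants, so the spread behind each p-value may be technical. TMM scaling, which sets most genes as unchanged, gave the leaf factors of 0.694 to 0.704 and the apices 1.15 to 1.26. Leaf differences are therefore relative to the typical gene, and against total counts the median gene moved from -0.10 to -0.93 on the log2 scale between leaf and 5-week apex.

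In the mutant leaf all 5 WRKY genes were listed lower than in the control. By the authors' deposited table for the leaf, WRKY53 reached 0.11 of its control level, WRKY46 at 0.142, WRKY54 at 0.278, WRKY25 at 0.347 and WRKY40 at 0.485. The listing as lower in the leaf holds for 53.9% of all listed IDs, and the choice of listed genes fixed part of it. Ordered from the strongest reduction among the 801 IDs of the authors' deposited table, WRKY53 ranked 96, WRKY46 135, WRKY54 331, WRKY25 463 and WRKY40 754. The median fold of that whole list was 0.314, so that WRKY53, WRKY46 and WRKY54 lay below it and WRKY25 and WRKY40 above. The authors' adjusted p in the deposited table ran from 1.72e-23 for WRKY46 to 0.000102 for WRKY40. Both listed genes of a list for heat and touch, markers of handling, were also lower in the leaf, TCH4 0.327-fold and HSP90.1 0.392-fold by the authors' deposited table, and their part in the WRKY values was not tested. The other 8 genes of that list were not listed. Markers of other cell types also moved in that comparison. By the authors' deposited table PDF1, a gene of the shoot epidermis, was 54.37-fold higher in the mutant leaf, TMM of the stomatal lineage 6.33-fold, and the lignin laccase genes LAC4 and LAC17 2.03-fold and 2.00-fold, while the guard cell gene KAT1 was 0.378-fold. Leaf replicates 1, 2 and 3 held 42, 27 and 351 counts of PDF1 and 25, 18 and 56 of TMM, so these 2 folds lean on replicate 3. The part of the cell type markers in the lower WRKY values was not tested.

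At the apex WRKY40 and WRKY25 were listed, in opposite directions. By the authors' deposited table, WRKY40 exceeded the control 2.16-fold at 3 weeks (adjusted p = 5.43e-08) and 2.31-fold at 5 weeks (adjusted p = 0.000195). Listing as higher applied to 16.3% of the IDs at 3 weeks and 4.44% at 5 weeks. WRKY25 reached 0.379 of its control level at the 5-week apex by the authors' deposited table (adjusted p = 0.00598), where 3.36% of the IDs were listed lower. WRKY46, WRKY53 and WRKY54 were in neither apex list. Cell type markers were also listed at the apex. By the authors' deposited table the leaf gene CA1 was 2.44-fold higher in the mutant at 3 weeks. At 5 weeks the vascular gene SUC2 was 2.22-fold higher and the leaf gene LHCB2.1 was 0.492-fold. The part of these markers in the WRKY values was not tested. WRKY40 was one of 23 IDs (1.55%) listed in all 3 settings. Its combination of directions, up at the apex at either age and down in the leaf, was held by 2 of the 1487 IDs (0.134%). That of WRKY25, down at the 5-week apex and in the leaf, was held by 13 (0.874%). The mutant means in these tables followed the deposited libraries (over genes with 1 entry, within 2.095% of a constant ratio), so the lists and the levels given next come from the same mutant samples. Whether the effect of the mutant differed between organs could not be tested, because control libraries were not analysed here.

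**Figure D1:**
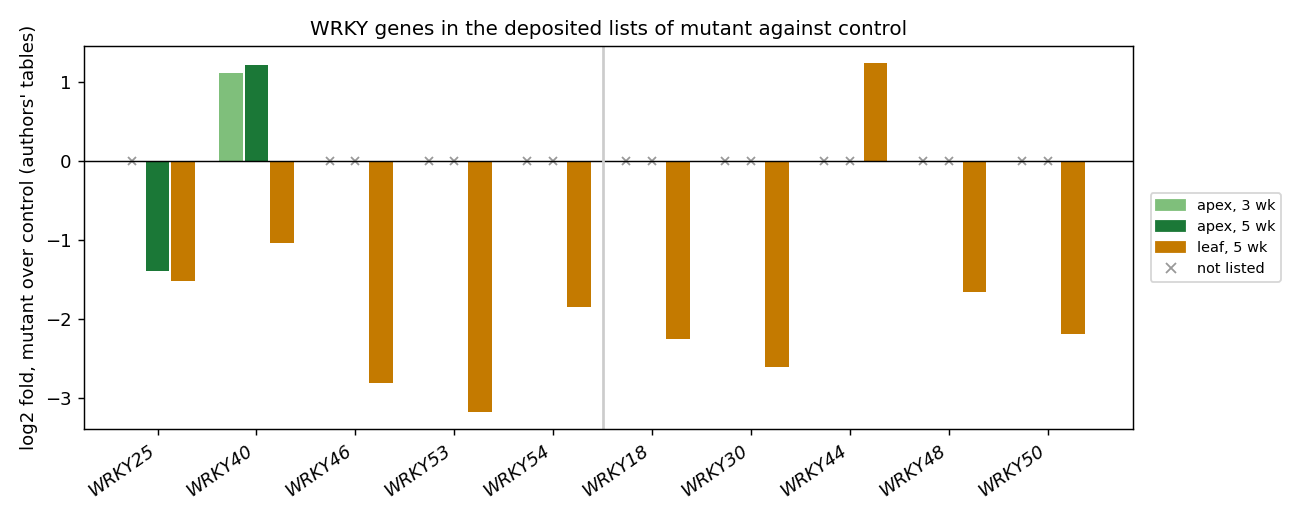
The log2 fold of mutant over control is plotted from the authors' deposited tables for 10 listed WRKY genes, the 5 described here left of the grey line, with 1 bar per setting and a cross where a gene was not listed. WRKY40 alone among them has bars above 0 at the apex (1.11 and 1.21) and below 0 in the leaf (-1.04), and WRKY53 has the lowest leaf bar (-3.18).

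WRKY25 had the widest organ difference of the 5 genes. The 3-week apex libraries held 2.48, 3.06 and 1.46 CPM (38, 45 and 22 counts), the 5-week apex libraries 0.902, 2.00 and 1.65 CPM (14, 30 and 25 counts), and the leaf libraries 34.5, 31.2 and 17.6 CPM (312, 294 and 158 counts). Every leaf library lay far above every apex library, while the apex ages overlapped. The mean was 27.8 ± 8.93 CPM in the leaf and 1.52 ± 0.562 at the 5-week apex (SD, n = 3 each), an 18.3-fold difference (log2 fold change 4.19, SE 0.29; edgeR adjusted p = 9.47e-10). Against the 3-week apex, at 2.34 ± 0.81 CPM (SD, n = 3), the leaf was 11.9-fold higher (log2 fold change 3.57, SE 0.27; edgeR adjusted p = 3.64e-09). Between the apex ages no change passed the test, with a log2 fold change of -0.62 and a 95% interval from -1.44 to 0.20 (edgeR adjusted p = 0.216). In these bulk samples fewer cells of a type and less RNA per cell cannot be told apart.

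WRKY40 was high in the young apex and in the leaf and low in the older apex. The 3-week apex libraries held 20.4, 16.0 and 16.6 CPM (312, 235 and 250 counts), those of the 5-week apex 6.25, 3.74 and 9.58 CPM (97, 56 and 145 counts), and the leaf 21.9, 18.5 and 13.2 CPM (198, 174 and 118 counts). The 5-week apex libraries lay below all 6 others, and the leaf overlapped the 3-week apex. From 3 to 5 weeks the apex mean fell from 17.7 ± 2.35 to 6.52 ± 2.93 CPM (SD, n = 3 each), a 2.70-fold decrease (log2 fold change -1.44, SE 0.23; edgeR adjusted p = 0.000161). Marker genes of leaf, vascular and stomatal cells fell over the same interval, with log2 fold changes of -4.93 for CA1, -1.27 for SUC2, -0.89 for TMM, -0.80 for LAC17 and -0.69 for LAC4 (edgeR adjusted p from 1.35e-05 to 0.0308). LHCB2.1, KAT1 and PDF1 did not pass (0.35, 0.47 and -0.87), by total counts LAC17 did not pass either (-0.70, edgeR adjusted p = 0.0501), and the part of these markers in the change of WRKY40 was not tested. The leaf, at 17.8 ± 4.39 CPM (SD, n = 3), was 2.73-fold above the 5-week apex (log2 fold change 1.45, SE 0.24; edgeR adjusted p = 4.06e-05). The leaf and the 3-week apex did not differ beyond their spread under TMM scaling (log2 fold change 0.01, 95% interval -0.45 to 0.48), whereas scaling by total counts put the leaf lower (-0.71, edgeR adjusted p = 0.00631). Beside this decrease between the ages stand the similar folds over the control, 2.16 and 2.31, of the authors' deposited table.

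WRKY46 of group III was lowest at the 3-week apex, higher at the 5-week apex and highest in the leaf. The young apex libraries had 13, 7 and 7 counts (0.848, 0.477 and 0.466 CPM), the older apex 35, 16 and 32 (2.26, 1.07 and 2.11 CPM) and the leaf 44, 48 and 28 (4.86, 5.10 and 3.13 CPM). No library of one group overlapped those of another. The apex level rose 3.00-fold between 3 and 5 weeks, from 0.597 ± 0.218 to 1.81 ± 0.649 CPM (SD, n = 3 each; log2 fold change 1.59, SE 0.39; edgeR adjusted p = 0.00425). The leaf mean of 4.36 ± 1.08 CPM (SD, n = 3) was 2.40-fold above the 5-week apex (log2 fold change 1.26, SE 0.30; edgeR adjusted p = 0.0012) and 7.20-fold above the 3-week apex (log2 fold change 2.85, SE 0.36; edgeR adjusted p = 2.18e-06). With total counts the step from the 5-week apex to the leaf was 0.44 on the log2 scale and no longer passed (edgeR adjusted p = 0.185).

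WRKY53, the senescence regulator, was the most thinly counted of the 5. The young apex libraries held 10, 4 and 14 counts, the older apex 14, 5 and 11, and the leaf 14, 22 and 8 (0.652, 0.272 and 0.931, then 0.902, 0.334 and 0.727, then 1.55, 2.34 and 0.893 CPM). The leaf overlapped both apex groups. Its leaf mean of 1.59 ± 0.723 CPM (SD, n = 3) passed the test against the 5-week apex, at 0.654 ± 0.291 (SD, n = 3), at 2.42-fold (log2 fold change 1.27, SE 0.47; edgeR adjusted p = 0.0215). Against the 3-week apex the log2 fold change was 1.35 (SE 0.48; edgeR adjusted p = 0.0176). Neither difference stands without single libraries. Leaving out leaf replicate 2 gave 0.89 and 0.97 (edgeR adjusted p = 0.161 and 0.138). With replicate 2 of the apex left out instead, the values were 0.96 for 5 weeks and 1.00 for 3 weeks (edgeR adjusted p = 0.0866 and 0.0843). Total counts gave 0.45 and 0.63, which did not pass either. The apex ages could not be told apart at this depth, the 95% interval of the log2 fold change running from -1.01 to 1.17.

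Under TMM scaling WRKY54 changed with age at the apex rather than between organs of the same age. The 3-week apex libraries had 5.28, 5.92 and 3.72 CPM (81, 87 and 56 counts), the 5-week apex libraries 7.16, 9.81 and 9.05 CPM (111, 147 and 137 counts), and the leaf libraries 9.50, 10.6 and 6.47 CPM (86, 100 and 58 counts). All 5-week libraries, of apex and leaf, lay above the 3-week apex. The apex level rose 1.74-fold, from 4.98 ± 1.13 to 8.67 ± 1.37 CPM (SD, n = 3 each; log2 fold change 0.80, SE 0.20; edgeR adjusted p = 0.00499). The leaf, at 8.86 ± 2.14 CPM (SD, n = 3), was 1.78-fold above the 3-week apex (log2 fold change 0.83, SE 0.21; edgeR adjusted p = 0.002). Leaf and 5-week apex had a log2 fold change of 0.04 with a 95% interval from -0.39 to 0.46 under TMM. By total counts the leaf was lower than the 5-week apex (-0.80, edgeR adjusted p = 0.00163), at 6.19 ± 1.53 against 10.8 ± 1.85 counts scaled to 1000000 in total (SD, n = 3 each), and no longer differed from the 3-week apex past the threshold (0.11, edgeR adjusted p = 0.639).

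**Figure D2:**
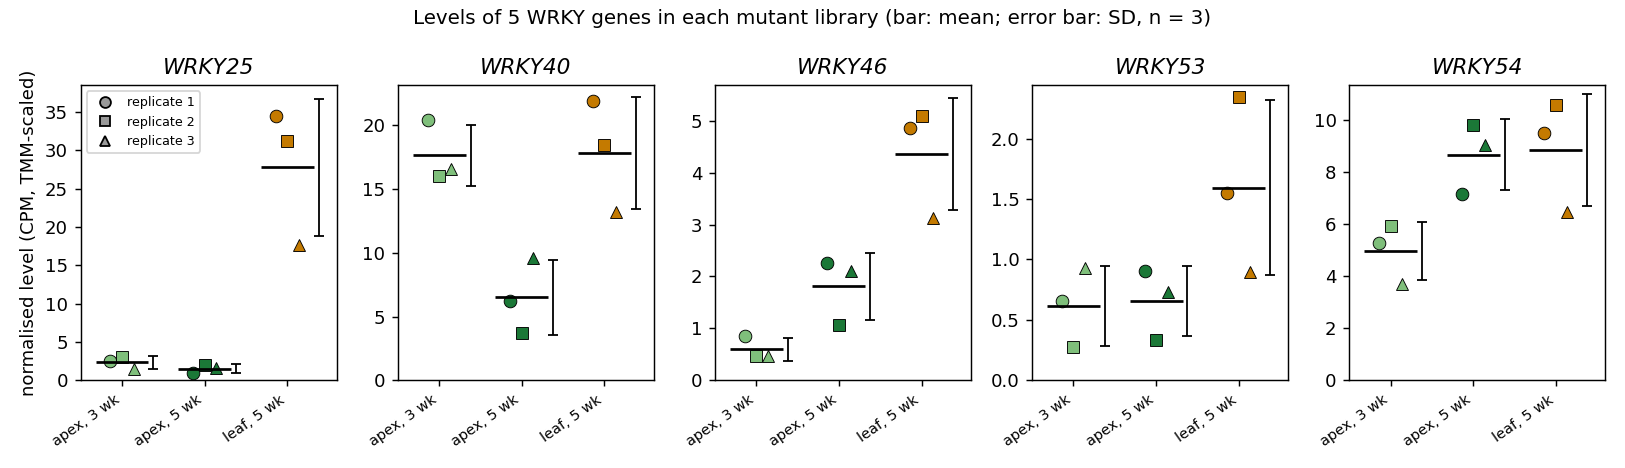
Normalised levels (CPM after TMM scaling, linear axes from 0) of the 5 WRKY genes are shown for the 9 mutant libraries, with the mean as a bar, the SD (n = 3) as an error bar and the replicate number as the symbol. WRKY25 stands out in the leaf (17.6 to 34.5 CPM), WRKY40 drops at the 5-week apex (3.74 to 9.58 CPM) and leaf replicate 3 is the lowest leaf library in every panel.

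Taken over the 5 genes, 4 were higher in the leaf than at the 5-week apex, 0 were lower and 1 did not pass. Over all 20633 genes tested 79.1% passed in that comparison, 37.1% higher and 42.0% lower in the leaf. The median log2 fold change of the 5 genes was 1.27, against -0.10 over all genes. In the leaf against the 3-week apex 4 were again higher, with a median of 1.35 against -0.03, where 74.9% of all genes passed, 36.6% higher and 38.3% lower. The gene that did not pass was WRKY54 in the former comparison and WRKY40 in the latter. Between the apex ages 2 rose (WRKY46 and WRKY54) and 1 fell (WRKY40), where 40.1% of all genes passed, 19.1% up and 21.0% down, and the medians were 0.08 for the 5 genes and 0.01 for all. Groups did not overlap for 3 of the 5 genes in each comparison, against 79.7% of all genes for leaf and 5-week apex, 78.6% for leaf and 3-week apex and 52.0% for the apex ages. By total counts only WRKY25 and WRKY40 were still called higher in the leaf than at the 5-week apex, and WRKY54 was called lower. All 5 genes stand in the list of genes lower in the mutant leaf, which needs signal in the leaf. For the leaf comparisons the shares over all genes are therefore not a matched background.

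**Figure D3:**
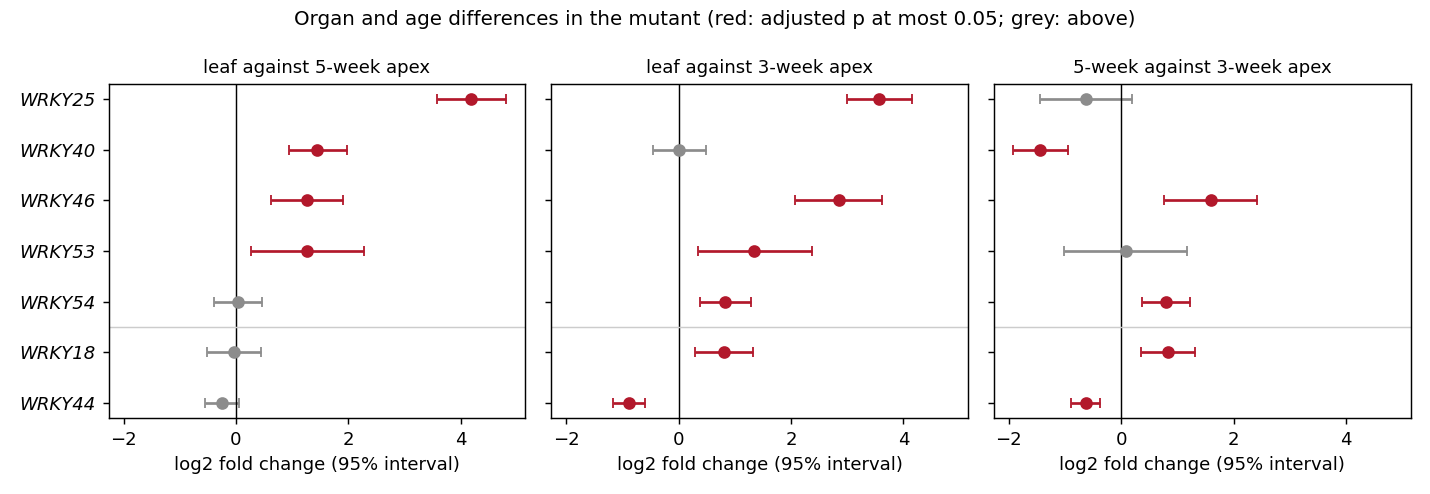
Log2 fold changes from edgeR with 95% intervals are given for 3 comparisons of the mutant libraries, in red where the adjusted p is at most 0.05, for the 5 WRKY genes and, under the grey line, WRKY18 and WRKY44. WRKY25 lies farthest to the right against both apex ages (4.19 and 3.57), while WRKY40 and WRKY46 lie on opposite sides of 0 between the apex ages (-1.44 and 1.59). By total counts WRKY54 falls below 0 against the 5-week apex (-0.80) and WRKY40 against the 3-week apex (-0.71), and WRKY18 and WRKY44 pass as lower in the leaf than at the 5-week apex (-0.86 and -1.08).

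Of 67 further WRKY genes looked for by their Arabidopsis codes, 5 were listed, and 4 of these were lower in the mutant leaf, where 53.9% of all listed IDs are. By the authors' deposited table, WRKY18, the partner of WRKY40, reached 0.209 of its control level, WRKY30 at 0.163, WRKY50 at 0.219 and WRKY48 at 0.316. WRKY44, known as TTG2 and acting in trichomes and the seed coat of Arabidopsis, was 2.34-fold higher by the authors' deposited table, where 26.7% of the IDs were. None of these was listed at the apex, so that WRKY18 was not listed at the settings where WRKY40 was higher. WRKY18 held 8.42, 6.54 and 5.59 CPM in the young apex libraries, 8.44, 10.3 and 18.1 CPM in the older ones and 12.3, 12.3 and 11.4 CPM in the leaf, so that only the 3-week apex lay apart from the leaf. It rose 1.79-fold with age at the apex (log2 fold change 0.84, SE 0.23; edgeR adjusted p = 0.00824), where WRKY40 fell. WRKY44 fell from 11.2 ± 0.346 to 7.21 ± 0.294 CPM between the apex ages (SD, n = 3 each; log2 fold change -0.63, SE 0.12; edgeR adjusted p = 0.000723). WRKY30, WRKY48 and WRKY50 were below the expression filter. Summed over 3 libraries of the young apex, the older apex and the leaf in turn, WRKY30 had 5, 5 and 21 counts, WRKY48 4, 3 and 23, and WRKY50 23, 17 and 20.

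Leaf replicate 3 was the lowest leaf library for all 5 genes, and for 72.9% of the 619 tested genes listed lower in the leaf, against 34.4% of all tested genes. The list was made from these same leaf libraries, so a low replicate 3 favours listing. That choice fixed part of both counts, and all tested genes are not a matched background. Leaf replicate 3 stood at 0.537 of the mean of the other leaf libraries for WRKY25, 0.653 for WRKY40, 0.628 for WRKY46, 0.46 for WRKY53 and 0.644 for WRKY54. Without it the leaf mean of WRKY25 moved from 27.8 to 32.8 CPM and that of WRKY53 from 1.59 to 1.94 CPM, and all 4 leaf calls against each apex age remained. At the 5-week apex replicate 2 was the lowest library for WRKY40, WRKY46 and WRKY53, at 0.472, 0.489 and 0.41 of the mean of the others. For WRKY25 and WRKY54 the same library was the highest of its group, at 1.57 and 1.21. Of the handling markers, TCH4 was also lowest in that library, at 8.87 CPM against 17.7 and 16.2, while HSP90.1 was lowest in replicate 3. In leaf replicate 3 both were lowest, TCH4 at 40.3 against 41.5 and 41.2 CPM and HSP90.1 at 1.79 against 1.99 and 2.34 CPM. Cell type markers set leaf replicate 3 further apart. PDF1 stood at 39.2 CPM there against 4.64 and 2.87 in leaf replicates 1 and 2, and TMM at 6.25 against 2.76 and 1.91. LAC4 stood at 69.7 against 40.2 and 44.3 CPM and LAC17 at 69.3 against 36.6 and 45.3. KAT1 was lowest there, at 2.57 against 3.76 and 3.29 CPM, and the part of these genes in the WRKY values was not tested.

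**Figure D4:**
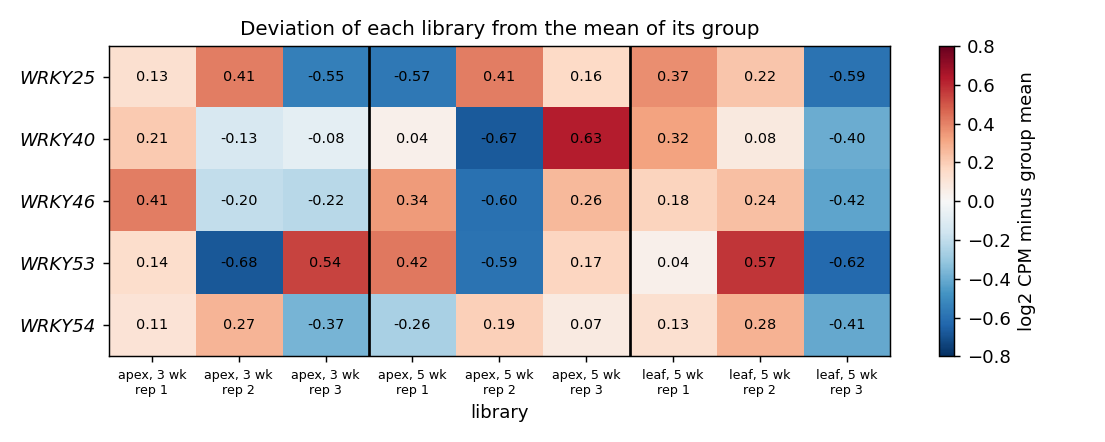
Each cell gives the log2 CPM (with a prior of 3 counts) of a library minus the mean of its group, for the 5 WRKY genes and the 9 libraries, with black lines between the groups. All 5 cells of leaf replicate 3 are negative (-0.40 to -0.62), and WRKY25 and WRKY54 share their sign in every library.

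The pathways around these factors were followed through lists of known genes, chosen with earlier results known, of which only members in the authors' tables have names. Most of the named members were listed as lower in the mutant leaf, which needs signal in the leaf. The shares over all genes given beside their leaf counts are therefore not a matched background. Of 23 genes for salicylic acid, 7 were listed, all lower in the mutant leaf, where 53.9% of listed IDs are. Of the 6 tested, 3 were higher in the leaf than at the 5-week apex, 1 was lower and 2 did not pass, with a median log2 fold change of 0.41 against -0.10 over all genes, of which 37.1% were higher and 42.0% lower. CBP60g and SARD1, both transcription factors that switch on salicylic acid synthesis, had log2 fold changes of 4.07 (SE 0.30) and 3.45 (SE 0.41). The transporter EDS5 was lower (-1.30, SE 0.31), and PAD4 and SARD4 did not pass (0.25 and -0.08). NIMIN2 passed at 0.57 (SE 0.22) but turned to -0.26 by total counts, under which 2 of the 6 were higher and 3 lower. Without leaf replicate 3, 7 genes could be tested, of which 5 were higher and 1 lower. Against the 3-week apex 5 of the 6 were higher and 1 lower, where 36.6% of all genes were higher and 38.3% lower. By total counts 2 of the 6 were higher there and 1 lower. PR1, the usual marker of salicylic acid responses, was too low to be tested, with 13, 16 and 2 counts in the leaf and at most 1 in any apex library.

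Among 22 genes of immune and oxidative stress signalling, 11 were listed, all lower in the mutant leaf, where 53.9% of listed IDs are. Of the 10 tested, 7 were higher in the leaf than at the 5-week apex, 1 was lower and 2 did not pass, against 37.1% higher and 42.0% lower over all genes, and the median log2 fold change was 2.14 against -0.10. PHI1 had a log2 fold change of 4.29 (SE 0.33), MYB51, a regulator of indole glucosinolates, 3.73 (SE 0.23), the zinc finger gene ZAT10 2.77 (SE 0.59), and the kinase genes MPK11 and MPK3 had 2.61 (SE 0.30) and 2.16 (SE 0.17). The ethylene response factor gene ERF104 had 2.13 (SE 0.26). The 1 lower gene, named after its value was seen, was the flagellin receptor gene FLS2 (-1.34, SE 0.16). ERF1A and ERF6 did not pass (0.45 and -0.37). By total counts 7 were again higher and 1 lower, and against the 3-week apex 7 were higher and 0 lower (6 and 1 by total counts), where 36.6% of all genes were higher. In the jasmonate list 5 of 18 genes were listed, 4 of them lower in the mutant leaf against 53.9% of listed IDs. Of the 5 tested, 4 were higher in the leaf than at the 5-week apex, against 37.1% of all genes, and JAZ1, a repressor of the pathway, was lower (-1.99, SE 0.23). The enzyme genes of jasmonate synthesis were the higher ones, LOX2 with a log2 fold change of 8.73 (SE 0.38), LOX3 of 2.68 (SE 0.28), AOC2 of 2.41 (SE 0.60, groups overlapping) and AOS of 2.00 (SE 0.21). LOX2 and AOC2 were also among the genes higher in the mutant at the 3-week apex, as WRKY40 was. Their folds were 5.86 and 3.79 by the authors' deposited table, where 16.3% of IDs were higher. Of the immune list 2 genes, ERF104 and ERF6, went the other way at that young apex, and 0 went with WRKY40. ERF104 reached 0.466 and ERF6 0.217 of the control level by the authors' deposited table. LOX2 was not listed in the leaf. In the leaf against the 3-week apex 4 of the jasmonate genes were higher and 1 lower, and 2 and 1 by total counts. Under TMM 36.6% of all genes were higher there and 38.3% lower.

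Of the proteins known to bind or modify these factors, 2 of 6 were listed, both lower in the mutant leaf, as 53.9% of listed IDs were. SIB1 and SIB2, VQ proteins that bind WRKY factors in Arabidopsis, reached 0.16 and 0.364 of their control levels by the authors' deposited table. SIB2 was 15.3-fold higher in the leaf than at the 5-week apex (log2 fold change 3.94, SE 0.28; edgeR adjusted p = 1.49e-09), with 18.9 ± 2.15 against 1.22 ± 0.757 CPM (SD, n = 3 each), and it fell 2.99-fold between the apex ages (edgeR adjusted p = 0.00141). SIB1 did not pass in any of the 3 comparisons under TMM and was lower in the leaf than at the 5-week apex by total counts (-1.10, edgeR adjusted p = 0.000345). Of 7 senescence genes only SEN1 was listed, higher in the mutant at the 3-week apex, as 16.3% of IDs were. Its fold there was 6.08 by the authors' deposited table. Within the mutant SEN1 fell between the apex ages (log2 fold change -3.01, SE 0.21). Its leaf level lay above the 5-week apex (1.38, SE 0.24) and below the 3-week apex (-1.62, SE 0.20). Both tested genes for heat and touch were higher in the leaf than at the 5-week apex, as 37.1% of all genes were. TCH4 was higher by 1.52 (SE 0.18) and HSP90.1 by 1.49 (SE 0.37) on the log2 scale. By total counts HSP90.1 did not pass (0.66, edgeR adjusted p = 0.106). The part of both genes in the leaf differences of the WRKY genes was not tested.

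**Figure D5:**
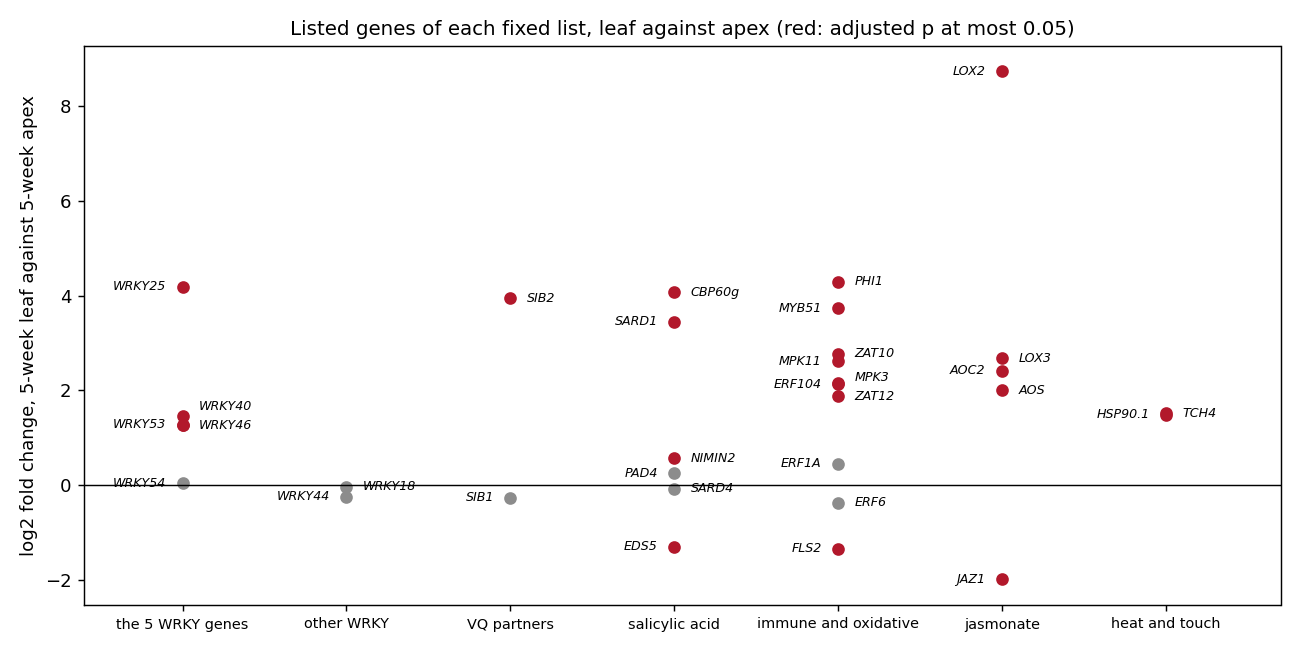
Log2 fold changes of the 5-week leaf against the 5-week apex (edgeR, TMM scaling) are plotted for the tested genes of each fixed list, in red where the adjusted p is at most 0.05. Most immune and jasmonate genes lie above 2 together with WRKY25 (4.19), whereas FLS2 (-1.34), EDS5 (-1.30) and JAZ1 (-1.99) lie below 0. By total counts most of them no longer lie above 2, with ERF104 at 1.30, MPK3 at 1.33, MPK11 at 1.78 and ZAT10 at 1.95. Of the jasmonate genes LOX3 is then at 1.85, AOC2 at 1.59 and AOS at 1.17. Also by total counts NIMIN2 falls to -0.26, PAD4 to -0.58, ERF1A to -0.38 and WRKY54 to -0.80.

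The genes most like each of the 5 were sought among 712 or 713 named genes by Pearson correlation of log2 CPM over the 9 libraries, which mainly follows the group means because the libraries form 3 groups. Nearest to WRKY25 were the receptor kinase gene SRF4 (r = 0.991), PIMT2 (0.990) and the cytokinin oxidase gene CKX5 (0.990). WRKY40 was nearest to OPCL1, a gene of jasmonate synthesis (0.944), AT2G34930 (0.940) and AT2G38240 (0.940). For WRKY46 they were the immune kinase gene RIPK (0.977), MYR2 (0.949) and SCAR4 (0.948). WRKY53 came nearest to PCRK1, a receptor-like kinase gene of immunity (0.894), CAF1a (0.868) and ATL6 (0.863), and WRKY54 to AT1G19715 (0.915), AT3G13040 (0.915) and the defence gene SARD4 (0.892).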

How the data were processed

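Polyadenylated RNA of 9 mutant libraries was sequenced as single reads. The raw counts per gene were used as deposited by the authors. STAR, HTSeq 0.5.4p1, DESeq and DESeq2 are named, with no role or order, per the submitters' processing notes. For both the genome build and the gene models, the version was not given in the sources used here. Between 10.7% and 19.2% of the counted reads fell to no gene or to more than 1 and were left out.

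The authors' 6 gene tables give a mean signal in normalized counts, the fold of mutant over control, its log2 value and an adjusted p-value, all as deposited. No sample of this series underlies the 6 columns of control means, and these were not used, nor were 6 columns of means over mutant and control. The 5 genes, the lists and the tests were chosen with earlier results of these data known.

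Counts were tested with edgeR 4.0.16 (R 4.3.3): TMM scaling, expression filter, 1 model of 3 groups tested by quasi-likelihood, and Benjamini-Hochberg adjustment over 20633 genes at 0.05. Each SE was derived from the log2 fold change and its F statistic. CPM are counts scaled to 1000000 in TMM-adjusted library size, and log2 CPM for likeness and deviations used a prior of 3 counts. Counts were recomputed with RLE factors, total counts, no filter, DESeq2 1.42.0, limma 3.58.1 with voom, entries of 1 ID summed, the compared groups alone, a replicate block and each library left out. The script was tested on simulated data. Figures used matplotlib 3.10.9 in Python 3.11.15.

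Named genes were fixed by rule: the 5 genes, other listed WRKY genes, up to 6 members per fixed list that passed between leaf and 5-week apex or shared a table with a WRKY gene, and the 3 likest genes by Pearson correlation. Marker genes of organs and of handling, PR1, SEN1, FLS2, ERF6 and ERF1A are named beside these.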

Additional observations from a re-analysis of the deposited data

How the results depend on the processing

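Of 255 recomputed log2 fold changes of the 5 genes, 245 kept their call, 8 lost it and 2 turned. With total counts in place of TMM, WRKY46 and WRKY53 in the leaf against the 5-week apex were 0.44 and 0.45, and WRKY53 and WRKY54 against the 3-week apex were 0.63 and 0.11, none of them called. Total counts also turned WRKY54 against the 5-week apex to -0.80 and WRKY40 against the 3-week apex to -0.71, both called. RLE factors changed no call of the 5 genes. With single libraries left out, WRKY53 ranged from 0.89 to 1.57 against the 5-week apex and from 0.97 to 1.75 against the 3-week apex. Under DESeq2 and limma with voom, no filter, summed entries and the compared groups alone, no call of the 5 genes changed. Same-numbered libraries did not deviate together (correlations from -0.077 to 0.008), and a replicate block kept 4, 4 and 3 of the 5 genes called and moved the count of all genes between the apex ages from 8265 to 7681. The share of calls higher in the leaf than at the 5-week apex was 46.9%, and 22.0% by total counts. Between the apex ages, 47.6% of calls were higher, against 66.2% by total counts, 40.1% with RLE and 37.3% with DESeq2. The split against the 3-week apex moved from 48.9% to 22.8% by total counts. Without a filter WRKY30 and WRKY48 passed between leaf and 5-week apex (edgeR adjusted p = 0.0111 and 0.0022), and WRKY50 did not (0.179). Depth limits WRKY53, WRKY30, WRKY48 and WRKY50, with under 25 counts a library. It also limits the comparisons of WRKY46 with the 3-week apex, where its libraries held 13, 7 and 7 counts.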

Other observations

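After the mean of each group was subtracted, the likest of 712 named genes to WRKY25 was WRKY54, and the likest to WRKY54 was WRKY25 (r = 0.958 over the 9 libraries, which share their 3 group means, given as a description). Both genes had the same order of libraries within each apex group, replicate 2 highest at both ages, replicate 3 lowest at 3 weeks and replicate 1 lowest at 5 weeks. In the leaf replicate 3 was lowest for both, while WRKY25 was highest in replicate 1 and WRKY54 in replicate 2. The next genes to WRKY25 were NUDT18 (0.938) and CKX5 (0.932), and to WRKY54 MLO8 (0.908) and AT1G78170 (0.897). WRKY40 and WRKY46 also moved alike within groups (0.845), as did WRKY46 and WRKY53 (0.695), whereas WRKY25 and WRKY46 did not (0.051).

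For WRKY40 the likest genes within groups were XBAT34, a ubiquitin ligase gene (0.984), LRR XI-23 (0.977) and the tetraspanin gene TET8 (0.958). For WRKY46 they were UCP5 (0.921), AT5G02480 (0.920) and AT5G35735 (0.914), and for WRKY53 AT4G32340 (0.900), AT5G35735 (0.891) and AT4G31000 (0.873). AT5G35735 was thus near both of these group III genes. WRKY53 rests on 4 to 22 counts a library, and counting noise enters its values.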
